A study of Homo sapiens with 6 samples.

Results

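CHMP4B was set beside the other subunits of the ESCRT-III membrane scission machinery and its ATPase in MDA-MB-231, an established human triple-negative breast cancer cell line. The members were every probe set that the array's annotation assigns to exactly 1 symbol among CHMP4B, CHMP4A, CHMP2A, CHMP2B, CHMP1A, CHMP1B, CHMP5, VPS4A, VPS4B and PDCD6IP. Each probe set combines several short oligonucleotides that target the same stretch of a transcript. The rule found 13 probe sets of 8 genes, out of 41091 single-symbol probe sets of 19775 genes. It found no probe set for CHMP4A or for PDCD6IP, which encodes the adaptor ALIX, so those genes are not analysed here. CHMP4B had been chosen because it was higher in this very comparison, so its values are a description and carry no test.

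Cells with a stable short hairpin RNA (shRNA) that targets MYOSIN10 (current symbol MYO10, a motor protein of filopodia) were compared with cells with a stable scramble shRNA, on 3 one-colour arrays each. All 6 samples were grown in Leibovitz's L-15 medium with serum, and both groups carry an shRNA construct. The labels name neither the hairpin sequences nor whether a group was 1 clone, and they do not say that the numbers 1 to 3 stand for separate cultures. The p-values therefore reflect only the scatter among these arrays, part or all of which may be technical.

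ESCRT-III proteins are small, charged subunits that polymerise into filaments on the inner face of a membrane neck and help to cut it. The machinery is known for budding vesicles into the late endosome, for the final cut between daughter cells, for repair of the plasma membrane and the nuclear envelope, and for the release of enveloped viruses. CHMP4 proteins form the main body of the filament, CHMP2 and CHMP1 proteins join later and bind the ATPase VPS4, and VPS4 takes the polymer apart.

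The 6 arrays were alike, with correlations across kept probe sets from 0.973 to 0.982 over the 15 pairs. Scramble array 2 stood nearer to the other group, with a mean correlation of 0.978 to the MYOSIN10 shRNA arrays and 0.977 to its own group. Defining genes of this cell line (VIM, CD44, CAV1, EGFR, MSN and AXL) all had a probe set above the filter. Of 6 epithelial or luminal markers 4 had at least 1, and CDH1 and PGR had none. The 4 had 10 kept probe sets, 7 of them above 0, with differences from -0.22 to 0.77, a median of 0.26 and 0 called. EPCAM was the largest, with means of 8.77 with MYOSIN10 shRNA and 7.99 with scramble shRNA (limma adjusted p = 0.177). GATA3 stood at 0.55 at 209603_at and at 0.22 at its brightest probe set, with means of 10.29 and 10.07. The 3 luminal probe sets below 0 were ESR1 211235_s_at (-0.22), ESR1 215551_at (-0.048) and ERBB3 215638_at (-0.12). Of 5 markers of other cells, PTPRC and ALB had no kept probe set. COL1A1, PECAM1 and CD3E had 6 between them, with differences from -0.045 to 0.57 and 0 called. Of these, 5 were above 0 and the median was 0.40, higher than that of the luminal list. Over all kept probe sets 1.06% were called. The part of either marker list in the results was not tested. The control probe sets of GAPDH and ACTB gave log2 differences of the 3' end over the 5' end from -0.087 to -0.062 and from 0.37 to 0.49 with MYOSIN10 shRNA, against -0.067 to -0.0069 and 0.46 to 0.51 with scramble shRNA. The brightest MYO10 probe set had log2 signals of 10.7, 11.39 and 10.64 with MYOSIN10 shRNA, against 11.57, 11.96 and 11.86 with scramble shRNA. At this probe set 54.2% of the scramble signal was left (log2 fold change -0.88 ± 0.17 SE, limma adjusted p = 0.0318). Of the 5 MYO10 probe sets 4 were lower in the mean, and the fifth, 1554026_a_at, stood at 0.31. Its mean level with MYOSIN10 shRNA, 7.53, was above those of 236718_at (7.32) and 244350_at (7.18), both among the 4. None but the brightest was called (lowest limma adjusted p of the others 0.0514). The call at the brightest ended without MYOSIN10 shRNA array 1 (-0.78, limma adjusted p = 0.149) or 3 (-0.75, 0.157), or without scramble array 1 (-0.999, 0.0837) or 3 (-0.85, 0.17).

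CHMP4B, the main filament subunit, was a little over 2-fold higher in the MYOSIN10 shRNA cells at both of its probe sets. All levels are log2 of the authors' signal after 16 was added, and all differences are MYOSIN10 shRNA minus scramble shRNA on that scale. The brighter probe set, 225498_at, had levels of 12.46, 12.42 and 12.39 with MYOSIN10 shRNA, against 11.24, 11.23 and 11.23 with scramble shRNA. The arrays of each group lay close together and far from those of the other group, with means of 12.42 ± 0.036 and 11.23 ± 0.0061 (SD, n = 3 each). The difference of 1.19 ± 0.075 (SE) corresponds to 2.28-fold. This SE, like every SE here, is limma's moderated one. It draws on the variance of other probe sets and is not the scatter of this probe set alone.

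The dimmer CHMP4B probe set, 225119_at, had levels of 10.99, 10.96 and 11.25 with MYOSIN10 shRNA, against 9.68, 9.93 and 9.64 with scramble shRNA. Its groups did not overlap either, and the difference of 1.32 ± 0.12 (SE) corresponds to 2.50-fold. The pair of probe sets therefore read differences of like size on this gene. Leaving out each array in turn gave 1.17 to 1.20 for the brighter probe set and 1.23 to 1.41 for the dimmer one. Without scramble array 2 they stood at 1.19 and 1.41. An array reads RNA pooled from many cells, so a higher level in all cells and a very high level in some cannot be told apart.

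**Figure D1:**
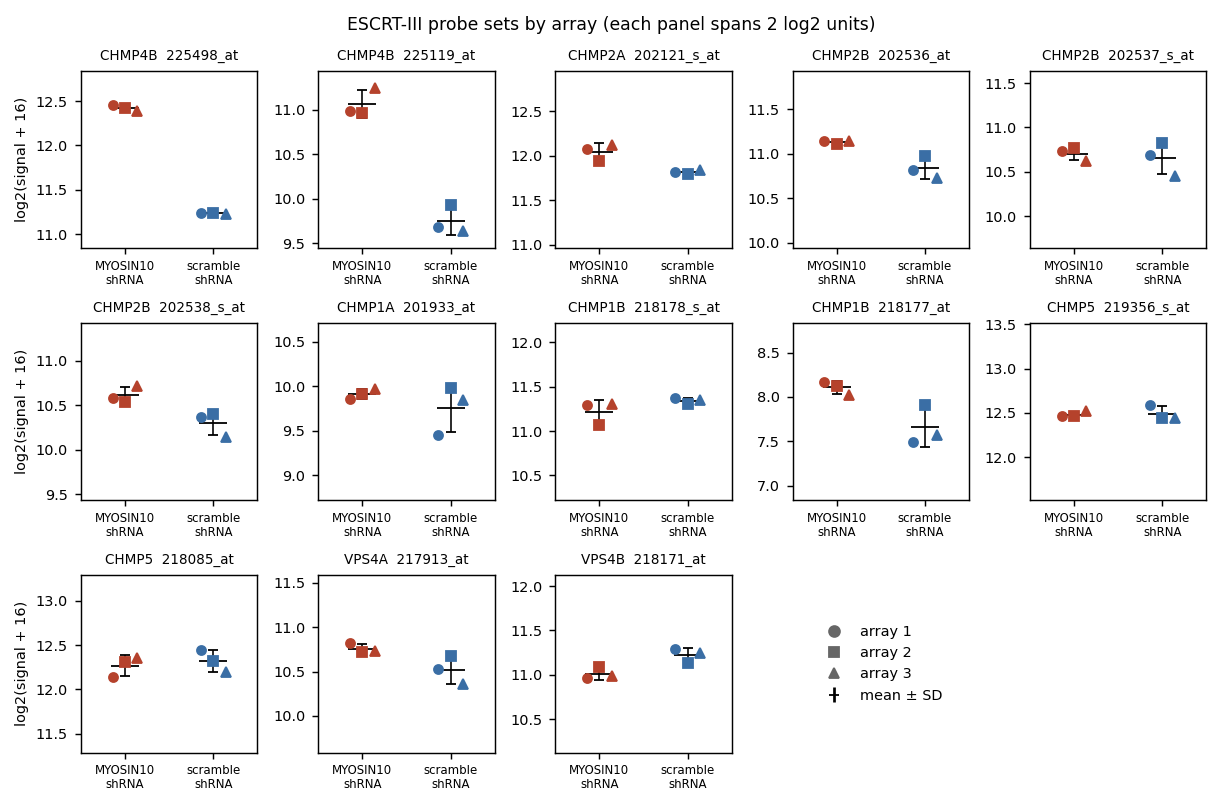
Level of each of the 13 probe sets on each array, as log2(signal + 16), with MYOSIN10 shRNA on the left of each panel and scramble shRNA on the right. Markers show the array number, black bars the mean ± SD of 3 arrays, and every panel spans 2 log2 units. The groups lie over 1 log2 unit apart at both CHMP4B probe sets and at most 0.45 apart in the mean at the others.

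CHMP2A and CHMP2B, the late-joining subunits that bind VPS4, were not called. CHMP2A had levels of 12.08, 11.94 and 12.13 with MYOSIN10 shRNA, against 11.82, 11.79 and 11.84 with scramble shRNA. All 3 MYOSIN10 shRNA arrays lay above the scramble arrays, yet the difference was 0.23 ± 0.081 (SE, limma adjusted p = 0.237), with a 95% interval of 0.052 to 0.40.

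CHMP2B, mutations of which are known in a familial frontotemporal dementia, was read by 3 probe sets. The brightest, 202536_at, had levels of 11.14, 11.11 and 11.15 with MYOSIN10 shRNA, against 10.82, 10.98 and 10.73 with scramble shRNA. The groups did not overlap, and the difference was 0.29 ± 0.092 (SE, limma adjusted p = 0.18). Without scramble array 2 this probe set passed, at 0.36 (limma adjusted p = 0.0382), and it also passed without both arrays numbered 2, at 0.37 (0.0381). Probe set 202538_s_at gave 10.59, 10.54 and 10.71 with MYOSIN10 shRNA, against 10.37, 10.4 and 10.14 with scramble shRNA. The groups again did not overlap, and the difference was 0.31 ± 0.10 (SE, limma adjusted p = 0.208). The third, 202537_s_at, gave 10.73, 10.77 and 10.62 with MYOSIN10 shRNA, against 10.69, 10.82 and 10.46 with scramble shRNA. Its groups overlapped and its difference was 0.048 ± 0.11 (SE, limma adjusted p = 0.901), so the probe sets of this gene did not all read alike.

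CHMP1A and CHMP1B also bind VPS4, and CHMP1B recruits the microtubule-severing ATPase spastin. CHMP1A had levels of 9.86, 9.91 and 9.97 with MYOSIN10 shRNA, against 9.45, 9.98 and 9.84 with scramble shRNA. The groups overlapped, with scramble array 1 lowest and scramble array 2 highest of all 6, and the difference was 0.16 ± 0.13 (SE, limma adjusted p = 0.689). Without scramble array 1 it was 0.0039.

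The probe sets of CHMP1B pointed opposite ways. The brighter, 218178_s_at, had levels of 11.29, 11.06 and 11.3 with MYOSIN10 shRNA, against 11.37, 11.31 and 11.35 with scramble shRNA, a difference of -0.13 ± 0.091 (SE, limma adjusted p = 0.62). The dimmer, 218177_at, had levels of 8.17, 8.13 and 8.02 with MYOSIN10 shRNA, against 7.5, 7.91 and 7.57 with scramble shRNA. Neither pair of groups overlapped. The dimmer probe set's difference of 0.45 ± 0.16 (SE, limma adjusted p = 0.255) was the largest of any member other than CHMP4B. No direction can be given for CHMP1B from these values.

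CHMP5, a regulatory subunit that binds the VPS4 cofactor VTA1, gave differences close to 0. The brighter probe set, 219356_s_at, had levels of 12.46, 12.47 and 12.52 with MYOSIN10 shRNA, against 12.59, 12.44 and 12.44 with scramble shRNA. The groups overlapped at this probe set and at 218085_at, whose levels were 12.14, 12.31 and 12.36 with MYOSIN10 shRNA, against 12.44, 12.32 and 12.19 with scramble shRNA. The differences were -0.0091 ± 0.075 and -0.048 ± 0.09 (SE, limma adjusted p = 0.976 and 0.875), with 95% intervals from -0.17 to 0.15 and from -0.24 to 0.15. The upper bounds of all 11 probe sets other than CHMP4B, 0.81 at most, lie below the smaller CHMP4B difference of 1.19. That difference was chosen on this comparison and carries no test.

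VPS4A and VPS4B encode the closely related ATPases that disassemble ESCRT-III, and their differences had opposite signs. VPS4A had levels of 10.82, 10.72 and 10.74 with MYOSIN10 shRNA, against 10.53, 10.68 and 10.36 with scramble shRNA. All MYOSIN10 shRNA arrays were above the scramble arrays, by a mean of 0.24 ± 0.10 (SE, limma adjusted p = 0.337). VPS4B had levels of 10.96, 11.09 and 10.99 with MYOSIN10 shRNA, against 11.29, 11.13 and 11.25 with scramble shRNA. Here all MYOSIN10 shRNA arrays were below the scramble arrays, by a mean difference of -0.21 ± 0.088 (SE, limma adjusted p = 0.33). Neither passed the test, and the difference between the ATPases was not tested.

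**Figure D2:**
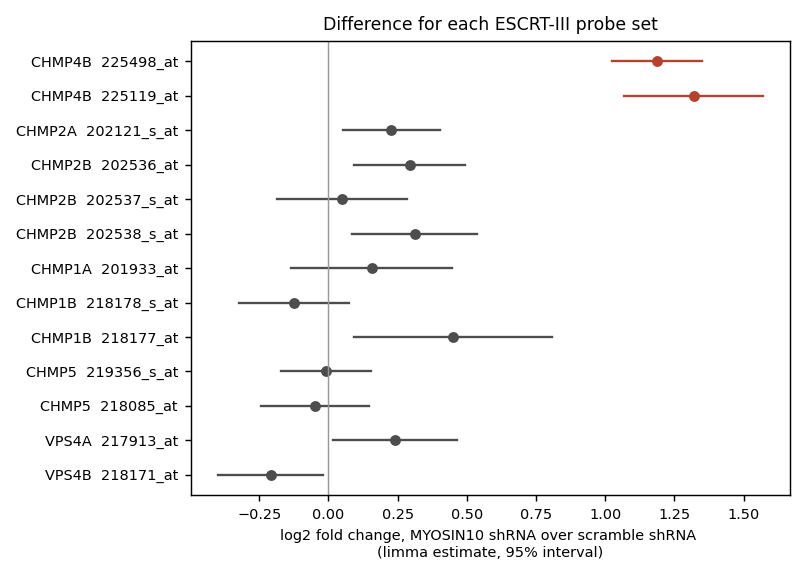
Difference of each probe set on the log2 scale, MYOSIN10 shRNA over scramble shRNA, with circles for the limma estimate and lines for its 95% interval. CHMP4B (red), which was chosen on this comparison, stands at 1.19 and 1.32, and the others (grey) run from -0.21 to 0.45.

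Whether other members moved with CHMP4B was then read from the counts. All 13 probe sets passed the filter on dim signals on all 6 arrays, so none entered through 1 group alone. At a limma adjusted p under 0.05 over 33334 kept probe sets, 2 of the 13 were called, both CHMP4B and both higher, against 0.693% of all kept probe sets called higher and 1.06% called in either direction. Because CHMP4B was chosen on this comparison, nothing is read from that count. Of the 11 probe sets of the other 7 genes, 0 were called.

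The 0 calls do not mean that the other members were level. At an unadjusted limma p under 0.05, 5 of the 11 were higher (CHMP2A, 2 of CHMP2B, 1 of CHMP1B, VPS4A) and 1 was lower (VPS4B), against 6.73% and 6.44% of all kept probe sets. These 5 come from 4 genes, and probe sets of 1 gene are not independent readings. The groups did not overlap with MYOSIN10 shRNA higher at 5 of the 11 and lower at 2, against 9.2% and 8.94% of all kept probe sets. The median difference of the 11 was 0.16, against -0.0021 for all kept probe sets. Leaving out scramble array 1 gave 0.065, and leaving out scramble array 2 gave 0.21. The largest of the 11 was 1.36-fold, at the dimmer CHMP1B probe set.

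**Figure D3:**
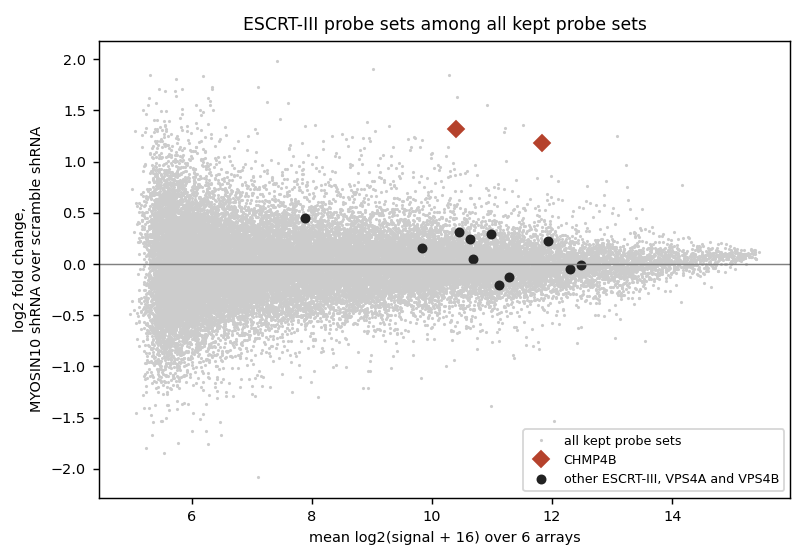
Difference (log2 fold change, MYOSIN10 shRNA over scramble shRNA) against mean level over the 6 arrays for all 33334 kept probe sets (grey), CHMP4B (red diamonds) and the other 11 probe sets of the machinery (black). The red diamonds stand at 1.19 and 1.32, outside the bulk of grey points of like brightness, and the black points run from -0.21 to 0.45.

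The rest of the ESCRT pathway was taken from a list of ESCRT-0, ESCRT-I, ESCRT-II, the remaining ESCRT-III subunits and the partners of VPS4 and ALIX. It held 32 genes with 58 probe sets, of which 53 passed the filter and 0 were called by limma, against 1.06% of all kept probe sets. At an unadjusted p under 0.05, 3 were higher and 2 lower, against 6.73% and 6.44% of all kept probe sets. The groups did not overlap with MYOSIN10 shRNA higher at 8 of the 53 and lower at 8, against 9.2% and 8.94%. The median difference was 0.010, and 27 of the 53 were above 0. CHMP3 and VTA1 had no single-symbol probe set. CHMP4C, a further CHMP4 gene that was read, stood at -0.11 at 226803_at (95% interval -0.49 to 0.28, limma adjusted p = 0.861). Its groups overlapped.

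Within each class the probe set with the smallest p is given. IST1, which shares the ESCRT-III fold, stood at 0.18 ± 0.12 (SE, limma adjusted p = 0.58) as the leader of 5 kept probe sets of the other ESCRT-III subunits. A dimmer IST1 probe set, 1562848_at, had the opposite sign, at -0.28 (limma adjusted p = 0.769). In ESCRT-0, which gathers ubiquitinated cargo on endosomes, HGS stood at -0.19 ± 0.096 (SE, limma adjusted p = 0.429) among 8. In ESCRT-II, which nucleates ESCRT-III by way of CHMP6, VPS25 stood at -0.17 ± 0.078 (SE, limma adjusted p = 0.389) among 3.

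ESCRT-I, which hands cargo on and links to ESCRT-III, gave the widest spread, from -0.99 to 0.97 over 15 kept probe sets. The lowest, MVB12B 221828_s_at, had a mean of 5.51 with MYOSIN10 shRNA. The highest, VPS37C 1560059_at, had a mean of 5.42 with scramble shRNA. Both means lie below the filters of the arrays, from 5.56 to 5.66, and neither probe set was called. The brightest probe sets of MVB12B and VPS37C stood at 0.13 and 0.062. The ESCRT-I subunit VPS37B had levels of 9.75, 9.7 and 10.02 with MYOSIN10 shRNA, against 9.22, 9.54 and 9.48 with scramble shRNA. The groups did not overlap, and the difference was 0.41 ± 0.13 (SE, limma adjusted p = 0.174). Without both arrays numbered 2 VPS37B passed, at 0.54 (limma adjusted p = 0.0486). That setting had 1547 calls over the whole array, against 354 with all 6 arrays. The mixed class had 22 kept probe sets. There the endosomal deubiquitinase USP8 stood at -0.47 ± 0.14 at 229501_s_at (SE, limma adjusted p = 0.154). At its brighter probe set USP8 stood at -0.062.

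**Figure D4:**
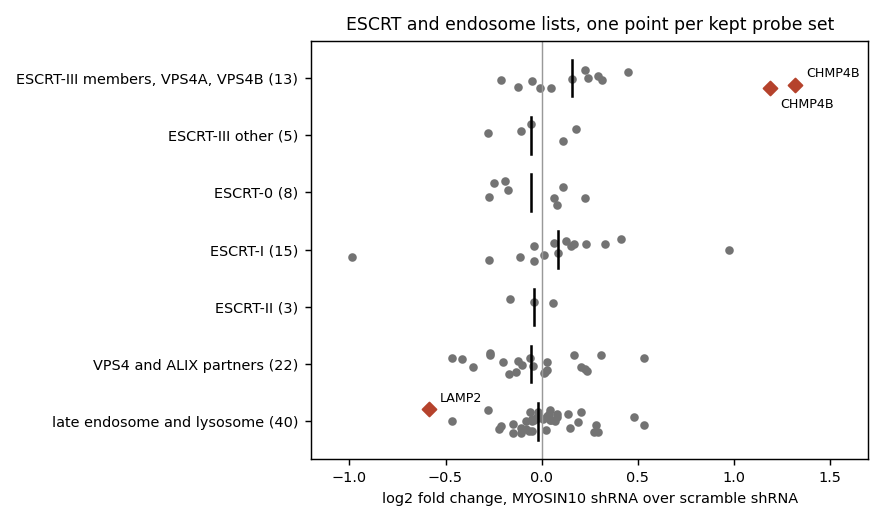
Difference (log2 fold change, MYOSIN10 shRNA over scramble shRNA) of every kept probe set in the ESCRT and endosome lists, with the number of probe sets in brackets and a black line at each median, taken without CHMP4B in the top row. Red diamonds mark CHMP4B and the single called probe set of the lists, LAMP2 200821_at at -0.59, and the medians of the ESCRT lists below the top row lie between -0.054 and 0.085.

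Late endosomes and lysosomes receive the vesicles that ESCRT-III buds, and 1 of 40 kept probe sets in that list of 14 genes was called, a lower one, against 0.369% of all kept probe sets called lower. LAMP2, a main glycoprotein of the lysosomal membrane, had levels of 11.69, 11.8 and 11.96 with MYOSIN10 shRNA, against 12.53, 12.27 and 12.4 with scramble shRNA at probe set 200821_at. This probe set fell by 0.59 ± 0.095 (SE, limma adjusted p = 0.0122). The call ended without MYOSIN10 shRNA array 1 (-0.52, limma adjusted p = 0.0885) or without scramble array 1 (-0.52, 0.0901) or 3 (-0.59, 0.0755). The other LAMP2 probe sets did not pass and differed in sign, at -0.47 (limma adjusted p = 0.0751), -0.063 (0.828) and 0.15 (0.514), the last being the brightest. The first of these, 226671_at, passed without scramble array 2 (-0.56, limma adjusted p = 0.0148), without both arrays numbered 2 (-0.54, 0.0249), with array weights (-0.50, 0.0267) and with the replicate block (-0.47, 0.0298). Each of these settings also had more calls over the whole array than the main fit.

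LAMP1, the companion glycoprotein, was above 0 at all 4 probe sets, from 0.27 to 0.53, and none was called (lowest limma adjusted p = 0.171). Without scramble array 2, LAMP1 201552_at passed at 0.37 (limma adjusted p = 0.0237). Vesicle and sorting genes of the list, such as CD63, CD81, RAB7A and VPS35, had no called probe set.

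The genes on either side of CHMP4B on chromosome 20 were taken by their order in the RefSeq table of assembly GRCh38.p14. Only 1 probe set per gene was read. None of these 6 probe sets was called, against 1.06% of all kept probe sets. With so low a share of calls, 6 probe sets without a call cannot show that the locus was unchanged. Before CHMP4B, the cell cycle transcription factor E2F1 stood at 0.16 ± 0.16, the peroxisomal membrane protein PXMP4 at -0.28 ± 0.14 and the zinc finger protein ZNF341 at -0.24 ± 0.18 (SE, limma adjusted p = 0.744, 0.423 and 0.621). After it, RALY-AS1 stood at 0.13 ± 0.19, the RNA-binding protein RALY at 0.026 ± 0.087 and the dim probe set listed under MIR4755 at 0.45 ± 0.43 (SE, limma adjusted p = 0.831, 0.937 and 0.729). The groups overlapped at all 6 of these probe sets.

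Over the 6 arrays, the genes most like CHMP4B 225498_at among 14181 others were BHLHE40, UGT8, SCCPDH, GPX3 and PCAT18, with Pearson r from 0.994 to 0.996 (n = 6 arrays). The groups of CHMP4B form separate clusters, so a likeness this close selects genes whose groups are apart in the same direction, and it is given as a description only. Their own differences ran from 0.51 to 1.63. PCAT18 lay below the filter on all 3 scramble arrays, passed it only through the MYOSIN10 shRNA arrays and was not called (limma adjusted p = 0.282). After each group's mean was removed, the closest were SUSD4, MIAT, SEPTIN7-DT, TNFRSF11A and PAX7, at r from 0.995 to 1.00. SUSD4 and MIAT were below the filter on 2 of 3 MYOSIN10 shRNA arrays and PAX7 on 1. On that measure the second CHMP4B probe set stood at r = -0.53 to the first, so the small movements within groups were not shared even by 1 gene's own probe sets.

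MYO10 and CHMP4B levels were set side by side on each array. MYOSIN10 shRNA array 2 had a MYO10 level of 11.39, against 10.7 and 10.64 on arrays 1 and 3, and its CHMP4B level at 225498_at was 12.42, between 12.39 and 12.46 on the other 2. At 225119_at the same array was the lowest of its group, at 10.96 against 10.99 and 11.25. The groups form separate clusters, so no correlation between MYO10 and CHMP4B was computed over the 6 arrays.

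**Figure D5:**
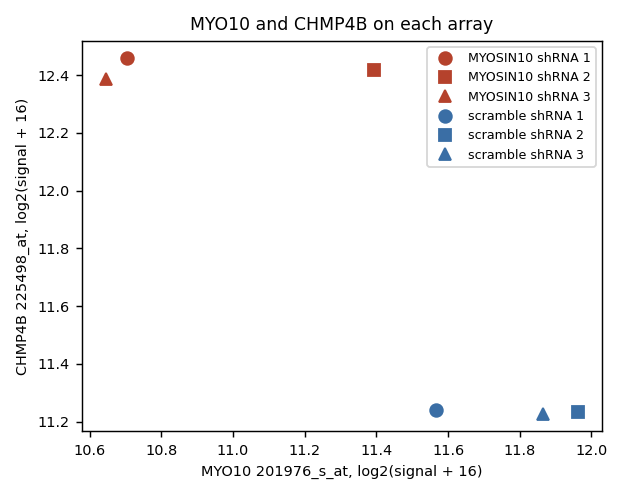
CHMP4B level at 225498_at against MYO10 level at 201976_s_at on each array, both as log2(signal + 16), with MYOSIN10 shRNA in red and scramble shRNA in blue. The MYOSIN10 shRNA arrays span 10.64 to 11.39 for MYO10 and 12.39 to 12.46 for CHMP4B, and the scramble arrays span 11.57 to 11.96 and 11.23 to 11.24.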

How the data were processed

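Total RNA was made into biotin-labelled cRNA with a 3' in vitro transcription kit, per the labels' protocols, which favours the 3' end of transcripts. The deposited values are log2 signals, made by the authors with MAS5 per the submitters' processing notes; which version and scaling target they used is not given in the sources used here. That the scale is log2 was read from the values: after conversion to linear signal, all 6 arrays had the same mean of 500.1 once 2% was trimmed at either end. A change of total RNA per cell would therefore not be visible. Arrays carry no read depth, and 3 arrays per group limit the precision.

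Of 54675 probe sets, 62 array controls were left out. Each deposited value x was replaced by log2 of (2 to the power x, plus 16), which understates fold changes of dim signals. Probe sets below the 40th percentile of the array on more than 3 of the 6 arrays were dropped, and 33334 remained. The platform annotation supplied symbols (41091 probe sets with 1 symbol, 1801 with several, 11721 with none listed). Of the single-symbol probe sets 41037 matched the RefSeq table by Entrez number and took its symbol, whether or not that differed. Probe sets carry no genome build here, so no coordinates are printed.

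The test was limma's (version 3.58.1, R 4.3.3), two-sided, with group as the sole term and a variance trend in eBayes, with Benjamini-Hochberg adjustment over all kept probe sets and a threshold of 0.05. SEs and 95% intervals are those of that fit, with variances moderated across probe sets. The steps were tested on simulated data. The members and lists were chosen with earlier results of these data known. Named beside the members are every called probe set of the lists, the probe set with the smallest p of each class without a call, 3 measured genes on each side of CHMP4B and the 5 genes most like it. CHMP4C, ESR1, ERBB3, LAMP1, CD63, CD81, RAB7A, VPS35 and the further probe sets of LAMP2, USP8 and IST1 were named after their values were seen. Alternatives were another pseudocount (none or 64), filter (none or the 60th percentile), scaling, variance model, probe set rule, the replicate number as a block, and left-out arrays. Plots used matplotlib 3.10.9 under Python 3.11.15.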

Additional observations from a re-analysis of the deposited data

How the results depend on the processing

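Over 17 alternatives the difference of CHMP4B 225498_at ran from 1.17 to 1.20. Of its 13 probe sets the machinery had 2 called, but 0 without the variance trend, where 0 probe sets of the whole array passed, 1 of 8 with 1 probe set per gene, and 2 to 3 when each array was left out. The 0 calls among the other 11 became 1 without both arrays numbered 2 and 0 to 1 when each array was left out. Their median of 0.16 became 0.27 without both arrays numbered 2 and 0.065 to 0.21 when each array was left out. The 0 calls of the other ESCRT list became 1 without both arrays numbered 2. The 1 call in the late endosome and lysosome list became 0 without the variance trend or with 1 probe set per gene, 2 with array weights, 3 without both arrays numbered 2 and 0 to 3 when each array was left out (0 without MYOSIN10 shRNA array 1 or scramble array 1 or 3, 3 without scramble array 2). The 354 called probe sets became 175 without a filter, 229 with 1 probe set per gene, 226 without _s_at and _x_at probe sets, 948 with array weights, 1547 without both arrays numbered 2 and 57 to 1468 when each array was left out (65 and 94 without MYOSIN10 shRNA array 1 or 3, 57, 1468 and 74 without scramble array 1, 2 or 3). MYO10 stood at -0.88 without a filter (limma adjusted p = 0.106) or without the variance trend (0.309), and from -1.12 to -0.75 when each array was left out. Without _s_at and _x_at probe sets the brightest MYO10 probe set was another one, 236718_at. It stood at -0.58 there (limma adjusted p = 0.157) and at -0.58 in the main fit. The causes were not tested.

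The arrays share replicate numbers, and same-numbered arrays had correlations of their deviations from the group means of 0.033, 0.12 and 0.013, and 2 of 6 arrays correlated best with their own number. The numbers were therefore not taken to pair the arrays. With the replicate block, 891 probe sets were called in all, 2 in the machinery and 2 in the late endosome and lysosome list.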
